A study of Mus musculus with 9 samples.

Results

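A set of 10 genes of the NRF2 pathway and of glutathione synthesis was followed in a mouse macrophage line that had been left untreated, exposed to bacterial lipopolysaccharide (LPS) or labelled as overexpressing the RNA-processing factor CstF-64. The genes were Nfe2l2, Keap1, Sqstm1, Slc7a11, Gclc, Gclm, Gss, Txnrd1, Srxn1 and Nqo1. All 17 probe sets whose platform annotation gave 1 of these symbols and no other were used, out of 22626 non-control probe sets for 12393 named genes on the array. Of the 10 genes, 6 had 1 probe set and 4 had several. The Affymetrix suffixes _s_ and _x_ mark probe sets whose probes match several transcripts or may bind unrelated ones. A gene with several probe sets was counted by its brightest probe set, the one with the highest mean over the 9 arrays.

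RAW 264.7 cells, a macrophage-like line from a virus-induced mouse tumour, gave total RNA for 9 Affymetrix expression arrays, 1 per sample. There were 3 untreated arrays, 3 arrays of cells kept with LPS at 100 ng/ml over 18 h, and 3 arrays labelled as constitutive overexpression of CstF-64. CstF-64, the product of Cstf2, is the RNA-binding subunit of the cleavage stimulation factor, which helps to set the 3' ends of mRNAs. The overexpression construct, whether the cells were 1 clone or a mixed population, and whether the arrays of a group came from separate cultures was not stated in the labels. A p-value here reflects only how far the arrays of a group differed, and that spread may be technical. The 3 untreated arrays serve as the reference in both comparisons, which are therefore not independent.

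The label of the overexpression arrays was checked on Cstf2 itself. Its brightest probe set, 1419645_at, read 398, 363 and 372 on the untreated arrays and 318, 362 and 395 on the arrays labelled CstF-64. The ranges overlapped, with a log2 change of -0.08 (SE 0.13, limma adjusted p = 1, exact permutation p = 0.4, n = 3 against 3). Its dimmer probe set, 1419644_at, read 115, 100.2 and 134 untreated and 97.1, 85.4 and 80.4 on these arrays, all lower (-0.36, limma adjusted p = 0.763). No higher Cstf2 signal was seen, and whether the probes cover the introduced sequence was not tested, so these arrays are called "labelled CstF-64" throughout. On the LPS arrays the brighter probe set read 221, 248 and 196, a log2 change of -0.74 (limma adjusted p = 0.00343). The dimmer one read 136, 107 and 113 there, overlapping the untreated arrays, a change of 0.03 (limma adjusted p = 0.94).

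All 9 macrophage markers examined (Cd68, Csf1r, Adgre1, Itgam, Lyz2, Spi1, Ptprc, Cd14 and Fcgr1) lay above the background limit on all arrays. That limit, an intensity of 31.2, was the highest value of the Bacillus control probe sets. On at least 1 array it was exceeded by 0 of 4 T cell, 2 of 3 B cell, 1 of 4 fibroblast, 1 of 3 endothelial and 1 of 5 epithelial markers. After LPS, 4 of the 9 macrophage markers rose and Csf1r fell. Their summed intensity went from between 14746 and 19596 untreated to between 20206 and 22039.9 after LPS. On the arrays labelled CstF-64 the sum was 15368 to 19444, and 0 of the 9 markers passed the threshold (0.274% of all genes). Adgre1 (log2 change -1.15, limma adjusted p = 0.0777) and Itgam (-0.48, adjusted p = 0.576) lay below the untreated range there (6.02% of all genes). Fcgr1 (0.48, limma adjusted p = 0.817) lay above it (7.41%). The part of these marker movements in the results on the 10 genes was not tested. In bulk RNA, fewer cells expressing a gene and less RNA per cell cannot be told apart. LPS array 1 and array 1 of those labelled CstF-64 were the least like their own groups, with mean correlations of 0.966 and 0.975 to the group's other arrays against 0.977 to 0.983 for the remaining arrays of these groups. Where a call on 1 of the 10 genes, or on a gene of the lists other than cell markers, turned on either array, its value without that array is given too. Calls on Cstf2 and on the markers were not examined without single arrays. Nor were those on dimmer probe sets where the arrays labelled CstF-64 were set against LPS.

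NRF2, encoded by Nfe2l2, is a transcription factor that KEAP1 marks for degradation in unstressed cells. When electrophiles or oxidants modify KEAP1, or when p62 (the product of Sqstm1) binds it, NRF2 accumulates and activates genes through antioxidant response elements. Its targets include the cystine importer Slc7a11, both subunits of glutamate-cysteine ligase (Gclc and Gclm) and reductases of the thioredoxin system. Activity of NRF2 is controlled largely at the level of the protein, which arrays do not measure. Macrophages use this system to contain oxidants produced during inflammatory activation.

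After LPS, transcripts for cystine uptake (Slc7a11), the p62 adaptor (Sqstm1), the regulatory subunit of glutamate-cysteine ligase (Gclm) and sulfiredoxin (Srxn1) rose. The transcript for the catalytic subunit of the same ligase (Gclc) fell below the untreated range. Changes in Nfe2l2 itself, Keap1, Gss, Txnrd1 and Nqo1 did not pass the threshold. Of the 10 genes, 4 were higher and 1 lower at a limma adjusted p below 0.05, where across the array 6.67% of genes were higher and 10.4% lower. The groups did not overlap for these 5 genes, 4 above the untreated range (13.3% of all genes) and 1 below it (20.6%), and for no other of the 10. The median log2 change was 0.41 over the 10 genes and -0.03 over all 12393 genes. By probe set, 7 of 17 were higher (5.93% of all probe sets) and 2 lower (10.7%). Among the arrays labelled CstF-64, 0 of the 10 genes passed the threshold, which 0.274% of all genes passed.

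**Figure D1:**
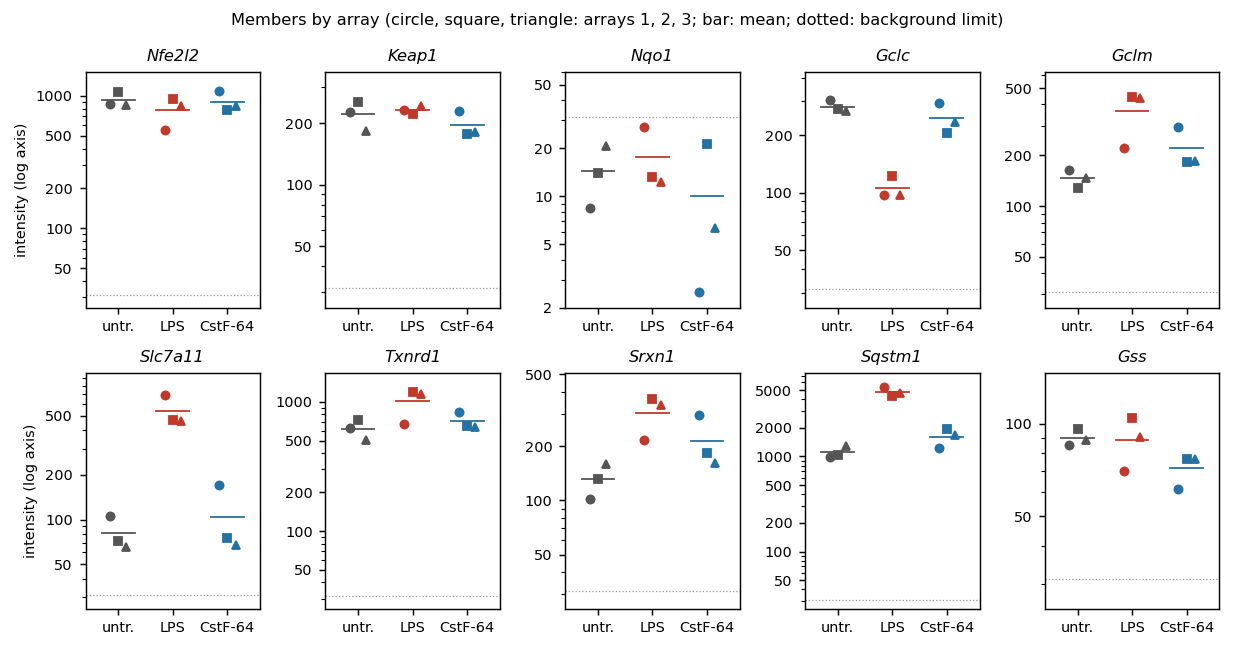
Intensity (log axis) of the brightest probe set of each of the 10 genes on the 9 arrays, by group, with the group mean as a bar and the background limit of 31.2 as a dotted line. The LPS arrays sit above all untreated arrays for Gclm, Slc7a11, Srxn1 and Sqstm1 and below them for Gclc, while Nqo1 lies at or below the limit on every array.

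The start-site windows of the genes (250 bases before to 50 after the start, RefSeq, assembly GRCm38.p6) were read for short motifs, because several of the genes moved together after LPS. Windows were matched for 9 of the 10 genes, 11 in all, and Gclc had no window in the table used. The antioxidant response element core, TGACNNNGC on either strand, was found in windows of 4 genes: Nfe2l2, Gclm, Txnrd1 (in 1 of its 3 windows) and Srxn1, in the last only after the start. It was present in 12.4% of all 32851 windows, a share by window, whereas the 4 is a count of genes, 1 of which had 3 windows. Of the 4 genes that rose after LPS, Sqstm1 had 0 matches to the motifs examined, and the windows of the other 3 were chosen for display because they hold matches. Only the 250 bases before the start are shown, 5' to 3' on the strand of the gene, with motif matches in capitals. Slc7a11 lies on the minus strand (chr3:50443614-50443863), and Srxn1 (chr2:152105274-152105523) and Gclm (chr3:122245307-122245556) on the plus strand.
Slc7a11: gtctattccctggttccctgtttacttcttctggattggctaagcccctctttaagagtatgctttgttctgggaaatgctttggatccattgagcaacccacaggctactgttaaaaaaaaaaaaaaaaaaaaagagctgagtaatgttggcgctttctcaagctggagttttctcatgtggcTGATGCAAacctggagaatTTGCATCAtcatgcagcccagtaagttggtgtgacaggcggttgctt
Srxn1: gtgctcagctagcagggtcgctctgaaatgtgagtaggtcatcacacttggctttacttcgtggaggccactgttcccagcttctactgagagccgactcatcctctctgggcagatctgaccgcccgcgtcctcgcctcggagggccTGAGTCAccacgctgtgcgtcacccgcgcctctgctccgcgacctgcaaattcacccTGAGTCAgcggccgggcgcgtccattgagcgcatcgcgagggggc
Gclm: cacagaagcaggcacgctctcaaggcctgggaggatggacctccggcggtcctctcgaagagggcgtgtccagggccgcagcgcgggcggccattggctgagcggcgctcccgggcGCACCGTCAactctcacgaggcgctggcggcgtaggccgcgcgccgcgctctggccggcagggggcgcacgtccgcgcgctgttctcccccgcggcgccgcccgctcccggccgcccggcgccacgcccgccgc
The capitals in Slc7a11 mark 2 matches to the C/EBP-ATF composite site TGATGNAA, 1 on each strand, which 3.97% of all windows held and no other of the 9 genes with a window. This composite site is the kind bound by ATF4, a regulator of amino acid supply. In Srxn1 they mark 2 copies of the AP-1 site TGAGTCA, which 5.2% of windows held, and in Gclm 1 core of the antioxidant response element, read on the opposite strand. An antioxidant response element can contain an AP-1 site within its letters. The core searched for, TGACNNNGC, matched at neither AP-1 site printed here. The site nearer the start is followed by gc (TGAGTCAgc), and forms of the element wider than this core were not searched for. A kappaB core motif was in 0 of the 11 windows and in 0.341% of all windows. These are string matches in short windows and do not show binding.

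Among the regulators, the transcript of the transcription factor itself was not detectably changed. Nfe2l2 read 873, 1074 and 855 untreated, 554, 947 and 842 after LPS, and 1085, 781 and 846 on the arrays labelled CstF-64. All groups overlapped, and the lowest of all 9 values was that of LPS array 1. The log2 change after LPS was -0.28 (95% interval -0.74 to 0.18, limma adjusted p = 0.425), and that of the arrays labelled CstF-64 was -0.05 (-0.51 to 0.41, adjusted p = 1).

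Keap1, the adaptor that presents NRF2 to the CUL3 ubiquitin ligase, was measured by a pair of probe sets. On the brighter, 1450746_at, it read 227, 255 and 184 untreated, 233, 223 and 241 after LPS, and 229, 177 and 182 on the arrays labelled CstF-64, with overlap throughout. Its log2 changes were 0.07 (95% interval -0.26 to 0.41, limma adjusted p = 0.811) and -0.17 (-0.50 to 0.17, adjusted p = 0.98). The dimmer, 1450747_at, read 132, 160.2 and 159 untreated against 86.7, 136 and 98.7 after LPS and 106, 128 and 125 on the arrays labelled CstF-64. Here LPS arrays 1 and 3 lay below the untreated range and array 2 inside it, for a log2 change of -0.46 (limma adjusted p = 0.105), which became -0.63 (adjusted p = 0.0325) without LPS array 2. All 3 arrays labelled CstF-64 lay below the untreated range, with a change of -0.30 (-0.69 to 0.09, limma adjusted p = 0.895). A test for unequal change of the probe sets of Keap1 after LPS gave an adjusted p of 0.201 (limma diffSplice).

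Sqstm1, whose p62 protein carries cargo to autophagy and competes with NRF2 for KEAP1, had the smallest adjusted p of the 10 genes after LPS. Its values were 979, 1048 and 1294 untreated, and 5408, 4336 and 4606 after LPS. All LPS arrays were far above the untreated range, a ratio of means of 4.32 and a log2 change of 2.10 (SE 0.18, limma adjusted p = 5.9e-05). The arrays labelled CstF-64 read 1233, 1922 and 1687, so that arrays 2 and 3 lay above the untreated range and array 1 inside it. That difference, 0.53 (95% interval 0.12 to 0.93), had an unadjusted limma p of 0.0162 and an adjusted p of 0.581.

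The largest log2 rise among the 10 genes after LPS was in the gene for cystine import. Slc7a11, the light chain of the cystine-glutamate exchanger xCT, read 105, 71.4 and 65.2 untreated and 698, 469 and 461 after LPS. The groups were far apart, with a ratio of means of 6.73 and a log2 change of 2.57 (SE 0.31, limma adjusted p = 0.000508). The arrays labelled CstF-64 read 172, 75 and 66.9: array 1 was above the untreated range and the others were inside it. The change there was 0.25 (95% interval -0.46 to 0.95, limma adjusted p = 1), and -0.13 without array 1 of those labelled CstF-64.

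The subunits of glutamate-cysteine ligase, the rate-limiting enzyme of glutathione synthesis, moved in opposite directions after LPS. Gclc, the catalytic subunit, read 306, 272 and 267 untreated and 97.1, 122 and 97.5 after LPS on its brighter probe set, 1424296_at. All LPS values were below the untreated range, a log2 change of -1.32 (SE 0.16, limma adjusted p = 0.000402), with the untreated mean 2.66 times the LPS mean. The dimmer probe set, 1455959_s_at, read 185, 171 and 135 untreated and 85.6, 83.5 and 84.4 after LPS, again without overlap and with a change of -0.85 (SE 0.15, limma adjusted p = 0.00361). The fall was larger on the brighter probe set, but a test of unequal change gave an adjusted p of 0.227 (unadjusted p = 0.0364, limma diffSplice). For Gclc, the arrays labelled CstF-64 read 295, 205 and 234 (brighter probe set) and 184, 152 and 155 (dimmer probe set), overlapping the untreated arrays on both. The changes were -0.20 (95% interval -0.55 to 0.14) and 0.01 (-0.32 to 0.33), with limma adjusted p-values of 0.949 and 1.

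Gclm, the modifier subunit that raises the affinity of the enzyme for glutamate and eases feedback by glutathione, read 164, 129 and 146 untreated and 220.0, 445 and 439 after LPS. Every LPS array exceeded every untreated array, though array 1 by much less than the others. The ratio of means was 2.52 and the log2 change 1.20 (SE 0.27, limma adjusted p = 0.0145). The call was lost without untreated array 2 (1.12, adjusted p = 0.0594) or without LPS array 3 (1.04, adjusted p = 0.0586). For the arrays labelled CstF-64 it was 295, 183 and 185, all above the untreated range, with a change of 0.53 (95% interval -0.08 to 1.14, limma adjusted p = 0.853).

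Within each array, log2 Gclc minus log2 Gclm compared the changes of the subunits, not their levels, since probe sets differ in brightness. The difference was 0.85, 1.01 and 0.81 untreated (0.89 ± 0.10, SD, n = 3) and -1.08, -1.76 and -2.03 after LPS (-1.62 ± 0.49, SD, n = 3). The shift of -2.51 had an exact two-sided permutation p of 0.1, the smallest that 3 against 3 arrays allow. Gclc lay below and Gclm above the untreated range on all LPS arrays, so this p followed from those results and adds nothing to them. Where the label was CstF-64, the values were 0.00, 0.16 and 0.32 (0.16 ± 0.16, SD, n = 3), below all untreated values, a shift of -0.73 with the same smallest p of 0.1 (exact permutation). Neither shift could have reached a p of 0.05 in this design.

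**Figure D2:**
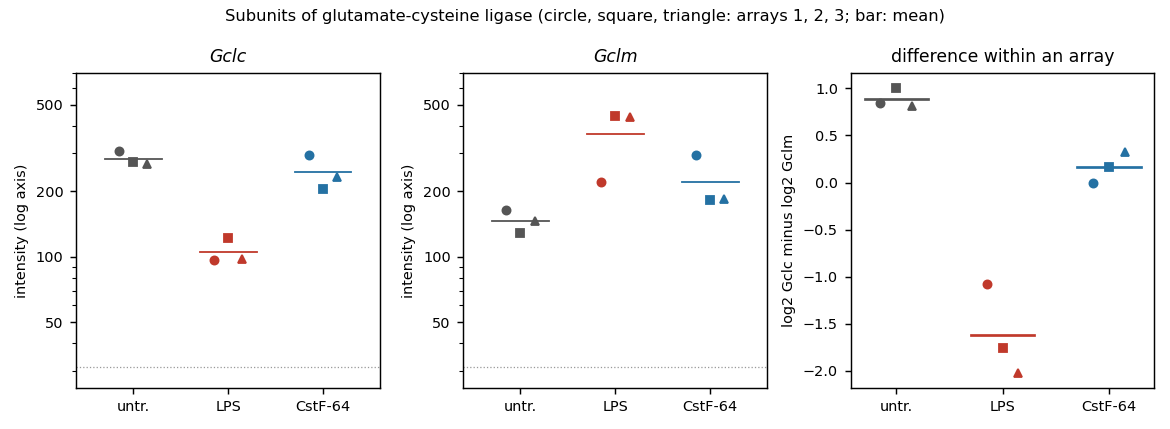
Intensity (log axis) of Gclc and Gclm on the 9 arrays by group, and the log2 difference between them within each array, with bars at the group means. Gclc is below and Gclm above its untreated values on all LPS arrays, and the within-array difference moves from a mean of 0.89 untreated to -1.62 after LPS and 0.16 on the arrays labelled CstF-64.

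Gss, glutathione synthetase, which adds glycine in the last step of the pathway, read 85.2, 96 and 88.3 untreated, 70.2, 105 and 90.8 after LPS, and 61.2, 76.6 and 76.7 on the arrays labelled CstF-64. The LPS values spanned the untreated range, with a log2 change of -0.03 (95% interval -0.41 to 0.34, limma adjusted p = 0.938). All 3 arrays labelled CstF-64 were below the untreated range, with a change of -0.29 (-0.66 to 0.09, limma adjusted p = 0.897).

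Srxn1, sulfiredoxin, reduces overoxidised peroxiredoxins and was read by 4 probe sets, all of which rose after LPS. On the brightest, 1426875_s_at, it read 102, 132 and 158 untreated and 217, 364 and 336 after LPS, without overlap, a log2 change of 1.14 (SE 0.26, limma adjusted p = 0.015). On the second, 1451680_at, it read 105, 121 and 115 untreated and 193, 264 and 211 after LPS, a change of 0.89 (SE 0.17, limma adjusted p = 0.00572). The LPS arrays also lay above all untreated arrays on 1425351_at and 1419942_at, with changes of 1.15 (limma adjusted p = 0.0132) and 0.95 (adjusted p = 0.00389). The call on the brightest probe set was lost without untreated array 1 (0.98, adjusted p = 0.058), LPS array 2 (1.00, adjusted p = 0.051) or LPS array 3 (1.05, adjusted p = 0.0572). That on 1425351_at was lost without untreated array 1 (0.97, adjusted p = 0.0501). A test for unequal change among the 4 probe sets gave an adjusted p of 0.952 (limma diffSplice).

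Srxn1 also held the probe set with the smallest unadjusted p of the 17 in the arrays labelled CstF-64, 1451680_at, though it did not pass the threshold. The brightest probe set read 297, 184 and 161 there, and 1451680_at read 237, 166 and 174, all above the untreated arrays. The log2 differences were 0.63 (95% interval 0.05 to 1.21) with an unadjusted limma p of 0.0358 and an adjusted p of 0.721, and 0.68 (0.31 to 1.06) with an unadjusted p of 0.0023 and an adjusted p of 0.281. The dimmer probe sets 1425351_at (155, 103 and 79.7) and 1419942_at (69.3, 76.4 and 76.8) gave 0.67 (adjusted p = 0.671) and 0.37 (adjusted p = 0.774) by limma. The arrays labelled CstF-64 lay above the untreated range on 3 of the 4 probe sets (6.67% of all probe sets), and unadjusted p-values were under 0.05 on 4 of 4 (6.45% of all probe sets). The probe sets share their arrays and are not replicates. Array 1 of those labelled CstF-64 gave the highest value of its group on the first 3 probe sets and the lowest on 1419942_at.

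**Figure D3:**
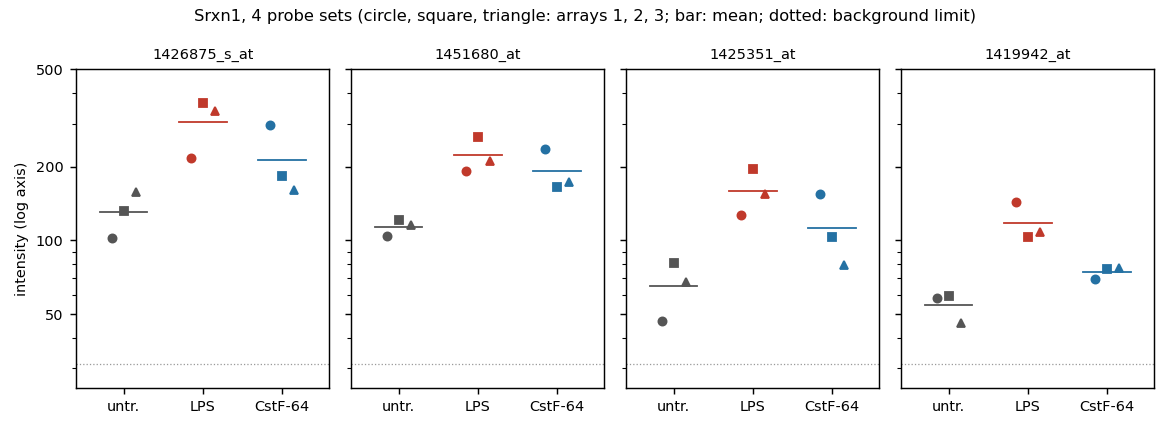
Intensity (log axis) of the 4 Srxn1 probe sets on the 9 arrays by group, with bars at the means and a dotted line at the background limit. On each probe set the LPS arrays sit above all untreated arrays, and on 3 of the 4 the arrays labelled CstF-64 do too.

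Txnrd1, the cytosolic thioredoxin reductase, was read by 3 probe sets, and none passed the threshold after LPS. On the brightest, 1421529_a_at, it read 629.7, 724 and 508 untreated, 675, 1199.7 and 1160.1 after LPS, and 842, 654 and 642 on the arrays labelled CstF-64. LPS arrays 2 and 3 were above the untreated range and array 1 inside it, with a log2 change of 0.66 (95% interval 0.16 to 1.17, limma adjusted p = 0.0778). Without LPS array 1 the change was 0.93 (adjusted p = 0.0085). The other probe sets, 1424486_a_at and the dim 1424487_x_at, gave 0.11 (-0.36 to 0.58, limma adjusted p = 0.795) and 0.03 (-0.35 to 0.41, adjusted p = 0.943), both with overlap. Unequal change among the 3 was not called (limma diffSplice adjusted p = 0.36). For the arrays labelled CstF-64 against untreated the changes were 0.20, 0.06 and -0.18, with limma adjusted p-values of 0.997, 1 and 0.983.

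Nqo1, the quinone reductase often used as a readout of NRF2, lay at or below the background limit on all 9 arrays. It read 8.4, 13.9 and 20.6 untreated, 27.1, 13.2 and 12.3 after LPS, and 2.5, 21.2 and 6.3 on the arrays labelled CstF-64. No fold is given, since these values have no usable order.

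**Figure D4:**
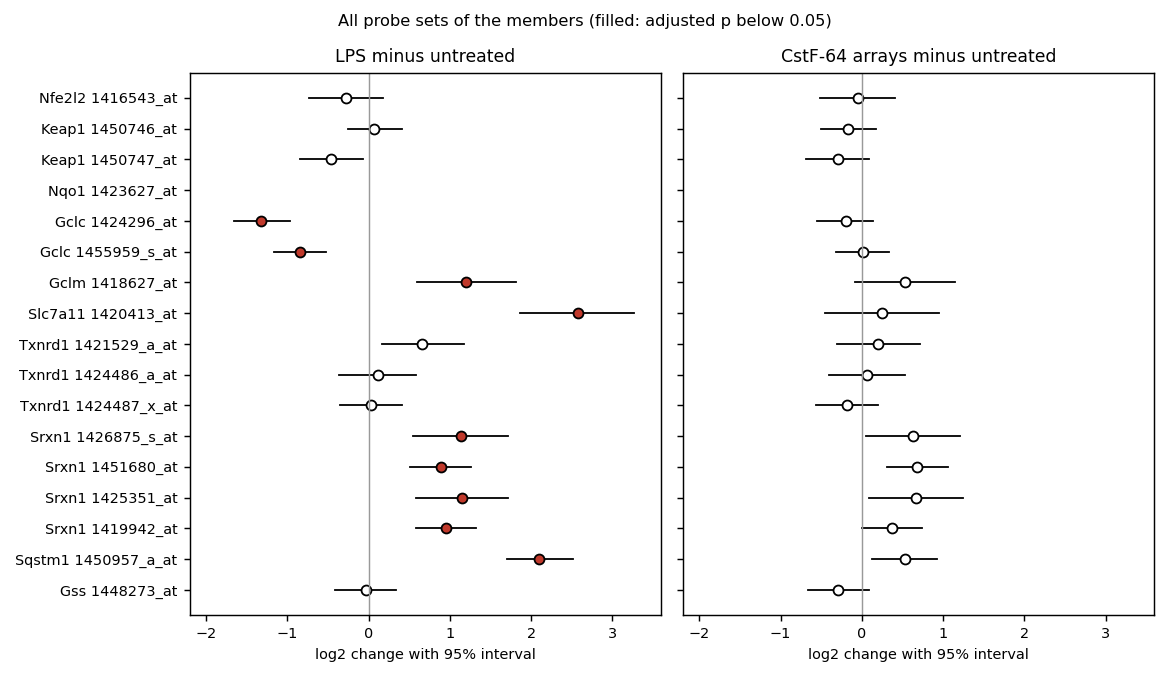
Log2 change with its 95% interval for 16 of the 17 probe sets (none is drawn for Nqo1, at or below background on all arrays), LPS minus untreated on the left and arrays labelled CstF-64 minus untreated on the right, with filled points where the adjusted p was below 0.05. There are 9 filled points on the left and 0 on the right, where 0.248% of all probe sets passed.

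CstF-64 acts where transcripts end, and unequal change between probe sets of 1 gene was therefore looked at. Where the probe sets lie relative to alternative ends was not checked, so the counts do not measure the choice of end. Of 4956 genes with several probe sets, 290 (5.85%) were called after LPS and 0 on the arrays labelled CstF-64 (limma diffSplice). At an unadjusted p under 0.05 the counts were 905 and 143. None of Keap1, Gclc, Txnrd1 and Srxn1 was called in either comparison, 2 and 0 of the 4 having an unadjusted p under 0.05.

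In the comparison of the arrays labelled CstF-64 with untreated, none of the 10 genes rose or fell by the test across the array (limma, 34 of 12393 genes called). At an unadjusted limma p under 0.05 there were 2 of 10, Srxn1 and Sqstm1, where 6.84% of all genes had such a p. Groups did not overlap for Gclm and Srxn1 (above, 7.41% of all genes) and for Gss (below, 6.02%). The median log2 change was 0.07 over the 10 genes and 0.01 over all genes. Array 1 of those labelled CstF-64 gave the highest value of its group on 10 of the 16 probe sets that exceeded background everywhere, and LPS array 1 the lowest of its group on 11. These arrays were not alone: LPS array 2 gave the highest of its group on 11 and untreated array 2 on 9. The shares over all probe sets were not computed.

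Set directly against the LPS arrays, those labelled CstF-64 differed in 3 of the 10 genes by limma, 1 higher and 2 lower, where 15.9% of all genes differed, 9.51% higher and 6.38% lower. Gclc was higher by 1.11 on its brighter probe set (95% interval 0.76 to 1.46, limma adjusted p = 0.00117) and by 0.85 on the other (adjusted p = 0.00369). Slc7a11 was lower, at -2.32 (-3.02 to -1.62, limma adjusted p = 0.001), and Sqstm1 at -1.58 (-1.98 to -1.17, adjusted p = 0.000376). Gclm differed by -0.67 (-1.28 to -0.06, limma adjusted p = 0.139), which became -0.99 (adjusted p = 0.014) without LPS array 1. Likewise Txnrd1 differed by -0.46 (adjusted p = 0.223), and by -0.73 without LPS array 1 (adjusted p = 0.0252, limma). Srxn1 differed by -0.50 on its brightest probe set (limma adjusted p = 0.251; -0.97, adjusted p = 0.0116 without both arrays 1) and was lower on 1419942_at alone among its probe sets, at -0.58 (adjusted p = 0.0426).

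Other target genes of NRF2 gave a mixed picture after LPS. Of 34 listed genes, 28 were measured and 22 exceeded background on at least 1 array; 7 rose and 1 fell (limma), beside 6.67% and 10.4% of all genes, with a median of 0.09 over the 28. Hmox1, heme oxygenase, read 314, 455 and 766 untreated and 2027, 1840.2 and 1984 after LPS, without overlap and with a log2 change of 1.99 (limma adjusted p = 0.00202). Blvrb, a biliverdin reductase, rose from 222 ± 7.09 to 791 ± 164 (SD, n = 3; 1.75, limma adjusted p = 9.4e-05). The other listed biliverdin reductase, Blvra, named after its values were seen, changed by 0.10 (limma adjusted p = 0.684). The aldo-keto reductase Akr1b8 rose from 742 ± 89.3 to 1609 ± 78.9 (SD, n = 3; 1.11, limma adjusted p = 0.00317). Ephx1, microsomal epoxide hydrolase, fell from 448 ± 120 to 161 ± 16.9 (SD, n = 3; -1.37, limma adjusted p = 0.00638). The other risen genes, named here after their values were seen, were Me1 (0.78), Abcc1 (0.75), Ugdh (0.53) and Gstp1 (0.49). Across arrays left out 1 at a time, between 4 and 7 of the 28 rose and 1 fell; the count of 4 was without untreated array 1. Quantile normalization gave 5 rises and 3 falls, and array weights 9 rises and 1 fall. Without LPS array 1, Abcc1 (0.57, adjusted p = 0.0533) and Ugdh (0.42, adjusted p = 0.12) lost their calls (limma). Of the 19 alternatives, Ugdh lost its call under 11 and Gstp1 under 5, while Me1 kept its call under all 19. Abcc1 also lost its call with quantile normalization (0.62, adjusted p = 0.0534, limma) and without untreated array 1 or 3. Of the 28, 0 were called on the arrays labelled CstF-64 and 1 had an unadjusted p under 0.05, beside 6.84% of all genes. That gene, Taldo1 of the pentose phosphate pathway, read 1155 ± 63.7 untreated and 884 ± 77.3 there (SD, n = 3; -0.38, limma adjusted p = 0.704). Ephx1, the other gene of smallest adjusted p there that the rule named, differed by 0.48 (adjusted p = 0.879).

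Of 20 listed partners and regulators of NRF2, 17 were measured and 13 exceeded background. After LPS 4 rose and 1 fell (limma), beside 6.67% and 10.4% of all genes, with a median of 0.21. Maff, a small MAF protein of the kind that pairs with NRF2 on DNA, lay at 2 to 4.8 untreated, below background, and at 113, 74 and 96.1 after LPS, at least 2.98-fold higher (limma adjusted p = 0.000164). The fold sets the geometric mean of the LPS arrays against the limit of 31.2. The stress-induced Sesn2 rose by 1.04 (limma adjusted p = 0.0227; 0.83, adjusted p = 0.0646 without LPS array 1), Mafg by 0.56 (adjusted p = 0.03) and Gsk3b, the kinase that primes NRF2 for KEAP1-independent turnover, by 0.62 (adjusted p = 0.0337). Pgam5, named after its values were seen, fell by 0.77 on the log2 scale (limma adjusted p = 0.0363). These last 4 calls depended on single arrays: without untreated array 2, and likewise without untreated array 3, 1 of the 17 rose and 0 fell, and without untreated array 1, 2 rose and 0 fell. Of the 19 alternatives, Sesn2 lost its call under 3, Mafg and Gsk3b under 6 each and Pgam5 under 10. For Pgam5 these included quantile normalization (-0.63, adjusted p = 0.0919) and median centring (-0.61, adjusted p = 0.101, limma). The transcriptional repressor Bach1, also named after its values were seen, changed by -0.04 (95% interval -0.35 to 0.27, limma adjusted p = 0.887). On the arrays labelled CstF-64, 0 of 17 were called and 1 had an unadjusted p under 0.05, again beside 6.84% of all genes. It was Maff, which read 3, 18.5 and 21.4 there, all below background (limma adjusted p = 0.704). Maff passed the threshold without both arrays 1, an alternative chosen after seeing the data (limma adjusted p = 0.035), with all of its values there and untreated still below background. Mafg read 256 ± 28 against 200 ± 13.1 untreated (SD, n = 3; 0.33, limma adjusted p = 0.779).

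Of 22 listed genes of glutathione supply, use and turnover outside the 10, 20 were measured and 19 exceeded background. After LPS 4 rose and 3 fell (limma), beside 6.67% and 10.4% of all genes, and the median was -0.04. Glrx, the glutaredoxin that removes glutathione from proteins, rose from 240 ± 43.6 to 1455 ± 68 (SD, n = 3; 2.55, limma adjusted p = 3.7e-06). Cth, cystathionine gamma-lyase, which makes cysteine from cystathionine, read 75.9, 27.1 and 24.4 untreated, on 2 arrays below background, and 172, 171 and 179 after LPS. Its log2 change, against a group mostly at background, was 1.87 (limma adjusted p = 0.00578) and depended on the pseudocount, at 1.32 with 50 and 2.20 with 1. The glutathione transferase Gstt1 went from below background to 94.2, 61.9 and 81.9, at least 2.51-fold higher (limma adjusted p = 0.00208). Its relative Gstt2 fell (limma adjusted p = 0.00512), from values around the background limit (27.6, 32.9 and 29.2) to 3.2 to 5.3, and has no fold for that reason. Slc3a2, the heavy chain that pairs with xCT, rose from 1091 ± 120 to 1508 ± 67.4 (SD, n = 3; 0.47, limma adjusted p = 0.0205), and was named after its values were seen. Its call was lost under 5 of the 19 alternatives, among them quantile normalization (0.26, adjusted p = 0.195). Mgst3 (-1.13, adjusted p = 0.0401) and Lancl1 (-0.52, adjusted p = 0.0431) fell by limma and were likewise named afterwards. Of the 19 alternatives, Mgst3 lost its call under 10 and Lancl1 under 11, among them quantile normalization and median centring for both. Leaving out LPS array 1 was another (-0.81, adjusted p = 0.107, and -0.51, adjusted p = 0.0785, limma). Across arrays left out 1 at a time, 3 to 5 of the 20 rose and 1 to 4 fell, and quantile normalization gave 3 and 1; 1 fell without untreated array 3, LPS array 3, or array 2 or 3 of those labelled CstF-64. On the arrays labelled CstF-64, 0 of 20 were called and 1 had an unadjusted p under 0.05, beside the same 6.84%. This was Mgst2, a microsomal transferase, at 323 ± 25.5 untreated and 517 ± 54.3 there (SD, n = 3; 0.66, 95% interval 0.06 to 1.25, limma adjusted p = 0.715). Gstt2, which the rule also named, read 8.3, 24.4 and 32.2 there (limma adjusted p = 0.927).

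**Figure D5:**
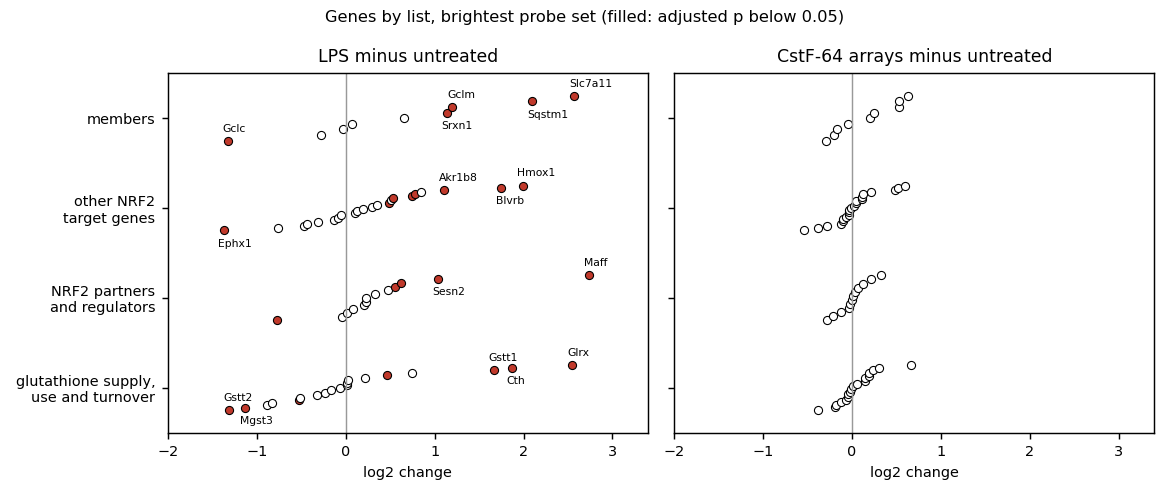
Log2 change of each gene (brightest probe set) that exceeded background on at least 1 array of the groups compared, among the 10 genes, labelled members, and in the 3 further lists, after LPS on the left and on the arrays labelled CstF-64 on the right, with filled points where the adjusted p was below 0.05. Filled points lie on both sides of 0 in every list after LPS, and the right panel has none.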

How the data were processed

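The deposited intensity values are linear, with a single value for each probe set on an array, and were used as the authors gave them. No source used here gives the software, background correction or normalization that made them; trimmed means lay between 150.048 and 150.065 on all arrays. Probe sets were named from the platform annotation, and those with several genes (691) or none (1555) were left unnamed. Values were transformed to log2(intensity + 13), which understates changes of dim probe sets; 13 is 0.25 of the median of all values. A linear model of 3 group means over all 9 arrays was fitted with limma 3.58.1 in R 4.3.3 (eBayes with an intensity trend, two-sided, Benjamini-Hochberg over 22626 probe sets, threshold 0.05). Scripts were tested on simulated data. "Called", "rose" and "fell" mean that a change passed this threshold.

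The 10 genes, lists, motifs and tests were chosen with earlier results of these data known. All 10 genes are named; no change is given where both groups lie at or below background. From each list, the text names up to 4 called genes of smallest adjusted p in each comparison with untreated arrays, or 2 where fewer than 2 were called. Each gene list held genes fixed by symbol. Alternatives were other scalings, pseudocounts, a filter on dim probe sets, no intensity trend, array weights, only the groups compared, a replicate block and leaving out each array. With 3 arrays per group, the number of arrays limits the precision.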

Additional observations from a re-analysis of the deposited data

How the results depend on the processing

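Of the 9 probe sets of the 10 genes called after LPS, 6 kept their call under all 19 alternatives (both of Gclc, Slc7a11, Sqstm1, and Srxn1 1451680_at and 1419942_at), and of 20 calls in the lists 10 were kept under every alternative that gives them a value (Gstt2 has none under the filter on dim probe sets). Leaving out 1 array gave 2399 to 4118 called probe sets after LPS against 3755, with the lowest without untreated array 2, and 3 to 6 of the 10 genes against 5, with 3 without LPS array 3. For the arrays labelled CstF-64 it gave 18 to 110 against 56, and for those arrays against LPS 2093 to 3299 against 3443, with 3 to 5 of the 10 genes against 3. The 10 genes gave 0 calls on the arrays labelled CstF-64 under every alternative. Array weights gave 230 calls on those arrays, and 5258 calls and 6 of the 10 genes for those arrays against LPS. Leaving out LPS array 1 and array 1 of those labelled CstF-64 together, chosen after seeing the data, gave 4465 calls after LPS, 286 on the arrays labelled CstF-64, and 3867 and 6 of the 10 genes between these groups. The shift of Gclc against Gclm ranged from -2.79 to -2.13 after LPS and from -0.81 to -0.62 on the arrays labelled CstF-64. The cause of these movements was not tested beyond the number of arrays used.

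Txnrd1 (1421529_a_at) was called after LPS with array weights (0.84, adjusted p = 0.00553) and with the filter on dim probe sets (0.66, adjusted p = 0.0441). Of the LPS calls over all probe sets 35.7% were higher as deposited, 46.2% after quantile normalization and 60.5% after median centring, with median changes of -0.04, 0.01 and 0.12; for the arrays labelled CstF-64 against LPS the shares were 62, 52.2 and 37.3%. Nqo1, at or below background on all arrays, is given no change.

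Correlations between the deviations of same-numbered arrays ran from -0.06 to 0.16, which does not show whether these arrays were prepared together. The actin 3' to 5' signal ratio was highest on array 1 of each group (1.204 untreated, 1.176 LPS, 1.217 labelled CstF-64). Other arrays had ratios of 1.029 to 1.141. That of Gapdh was highest on array 1 untreated and labelled CstF-64 but lowest on LPS array 1. Pairing by replicate number was not tested further. With the replicate block, 3774 probe sets and 5 of the 10 genes were called after LPS, 32 and 0 on the arrays labelled CstF-64, and 3385 and 3 for those arrays against LPS, and the Gclc minus Gclm shifts were -2.51 and -0.73.

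Signs turned in 22 cases, 0 of them called values, and the cause was not tested. After LPS, Gss changed by 0.14 with quantile normalization, 0.12 with median centring, 0.06 with array weights and 0.10 without both arrays 1, and by -0.14 to 0.10 without 1 array. Without 1 array, LPS values ran from -0.05 to 0.17 for Keap1 1450746_at, -0.12 to 0.25 for Txnrd1 1424486_a_at and -0.11 to 0.12 for Txnrd1 1424487_x_at. On the arrays labelled CstF-64 they ran from -0.19 to 0.05 for Nfe2l2, -0.12 to 0.10 for Gclc 1455959_s_at, -0.13 to 0.47 for Slc7a11 and -0.07 to 0.15 for Txnrd1 1424486_a_at. There, Gclc 1455959_s_at gave -0.04 with array weights and -0.07 without both arrays 1, and Slc7a11 -0.13 without both. Against LPS, the arrays labelled CstF-64 gave -0.03 for Nfe2l2 with array weights, -0.13 without both arrays 1 and -0.13 to 0.38 without 1 or both.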
